A study of Homo sapiens with 6 samples.

Results

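The MYC network is a family of transcription factors that read the same short DNA element, the E-box CACGTG, and compete for it. Its members were taken by gene symbol from the read counts of RNA sequencing, which gave 10 of 29744 genes, namely MYC, MYCN, MAX, MXD1, MXD3, MXD4, MXI1, MNT, MLX and MGA. They were followed in MDA-MB-231, a cell line from human breast cancer that lacks hormone receptors, in 6 libraries of 3 groups. In the line called shSUZ12 cells PARP1 was knocked out and a short hairpin RNA (shRNA) against SUZ12 was carried, and in the line called shEZH2 cells PARP1 was knocked out and the shRNA was against EZH2. The control was the wild-type cell line with the control hairpin shCntr. PARP1 makes poly(ADP-ribose) chains at DNA breaks. EZH2 and SUZ12 belong to Polycomb repressive complex 2 (PRC2), whose mark is methylated lysine 27 of histone H3. Each group had 2 libraries. All groups are 1 cell line at the same labelled passages, and no group lost just 1 of PARP1, EZH2 and SUZ12, so the loss of PARP1 and the hairpin cannot be told apart in a comparison with control. The labels do not say whether knockout cells were clones or whether replicates came from separate cultures. The p-values therefore reflect the spread of these libraries alone, possibly a technical spread.

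MYC activates genes when it is paired with MAX, and MYC-MAX dimers are best known for driving ribosome assembly, nucleotide and polyamine synthesis and cell growth. MXD proteins and MNT also pair with MAX, but bring SIN3 corepressors to the same E-boxes. MLX is a parallel partner used by the glucose-sensing factors MLXIP and MLXIPL and by some MXD proteins, and MGA carries MAX into a variant Polycomb complex, PRC1.6. High MYC activity is a known feature of breast cancers of the type from which MDA-MB-231 comes.

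Levels are CPM, the read count of a gene relative to the TMM-scaled size of its library, and libraries are given as replicate 1 and replicate 2. Gene counts per library lay between 20135270 and 22782742, where 3 counts correspond to 0.134 to 0.153 CPM. PARP1 stood at 28.7 and 26.6 CPM in shSUZ12 cells and at 33.6 and 28.6 CPM in shEZH2 cells, against 425 and 361 CPM in control. EZH2 stood at 201 and 221 CPM in shSUZ12 cells and at 53.1 and 63.5 CPM in shEZH2 cells, against 199 and 188 CPM in control. SUZ12 had 76.1 and 70.3 CPM in shSUZ12 cells and 130 and 53.1 CPM in shEZH2 cells, against 134 and 133 CPM in control. In shSUZ12 cells it did not pass edgeR's quasi-likelihood test (adjusted p = 0.377, adjusted after Benjamini and Hochberg), but passed at a like fold with these groups fitted alone (-0.86, adjusted p = 4.56e-06, edgeR) and without shEZH2 replicate 1 (2.43e-06) or replicate 2 (2.31e-06). The 2 shEZH2 libraries were unlike each other: 11.0% of the genes tested were apart by more than 2-fold between them, against 0.254% between the shSUZ12 libraries and 0.719% between the control libraries. Across genes, the difference between the shEZH2 replicates followed transcript length (Spearman's rho -0.64), and results on these cells were also computed without either library. In shEZH2 cells against control, calls among markers of other cell types were FOXA1 higher and EPCAM lower of 6 luminal markers, CD14 higher of 3 blood markers and PECAM1 higher of 5 fibroblast and endothelial markers, and none was called in shSUZ12 cells, where FOXA1, EPCAM, CD14 and PECAM1 were at an unadjusted p under 0.05 (edgeR). CD14 averaged 1.97 CPM in shSUZ12 cells, 3.26 in shEZH2 cells and 0.715 in control. ESR1, CD3E and CDH5 were at 0 in every library. Summed CPM of the 3 blood markers was 1.92 to 2.38 in shSUZ12 cells, 2.03 to 4.55 in shEZH2 cells and 0.991 to 0.998 in control. Summed CPM of the 6 mesenchymal markers of the cell line was 6642 to 6733, 6524 to 8610 and 7185 to 7912 in the same order of groups, with AXL called lower in shEZH2 cells and no other of the 6 called. Mean CPM of VIM was 3615 in shSUZ12 cells, 4289 in shEZH2 cells and 3056 in control, while that of AXL was 999.8, 743 and 1594, that of CD44 403, 437 and 815, that of CAV1 843, 751 and 1242, that of FOSL1 297, 427 and 453 and that of S100A4 529.5, 920.1 and 389. Summed CPM of the 6 luminal markers was 16.9 to 18.1, 18.0 to 20.9 and 25.9 to 28.7, and that of the 5 fibroblast and endothelial markers was 18.1 to 21.5, 17.3 to 21.9 and 11.9 to 18.1. The part of these markers in the results was not tested.

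MYC fell in shEZH2 cells and was the 1 network member that passed the test against control. MYC lies on chromosome 8 at 127735434 to 127741434 on the plus strand of GRCh38, as annotated by GENCODE 29. It had 99.6 and 86.8 CPM in shSUZ12 cells, 45.6 and 65.9 CPM in shEZH2 cells, and 122 and 118 CPM in control. The 3 groups did not overlap, with shEZH2 cells lowest, shSUZ12 cells between and the control highest. These levels rest on 2227 and 1821 reads in shSUZ12 cells, 945 and 1290 in shEZH2 cells, and 2716 and 2478 in control. In shEZH2 cells against control the log2 fold change of MYC was -1.11 ± 0.22 (SE, n = 2 per group), 2.15-fold lower, with an adjusted p of 0.0324 by edgeR's quasi-likelihood test. Among all 14192 genes tested, 6.74% were called in this comparison at an adjusted p under 0.05, 3.20% as lower and 3.54% as higher. In RNA from whole cultures, fewer cells that hold a transcript and less of it per cell cannot be told apart.

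The call of MYC held without either shEZH2 library, in fits that called 29.2% and 13.0% of all tested genes lower, at -0.86 without replicate 1 (adjusted p = 1.42e-05, edgeR) and -1.37 without replicate 2 (adjusted p = 3.21e-07, edgeR). In such fits the remaining shEZH2 library is assumed to vary as the libraries of the other groups do. The call was lost without control replicate 1 (adjusted p = 0.234, edgeR) or replicate 2 (0.232), without shSUZ12 replicate 1 (0.0985) or replicate 2 (0.0989), and with the shEZH2 and control libraries fitted alone (0.0973). MYC was lower in shEZH2 cells than in control under each of these settings.

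MYC was also below both control libraries in shSUZ12 cells, but did not pass the test. The log2 fold change was -0.36 ± 0.22 (SE), with a 95% interval from -0.87 to 0.14 and an adjusted p of 0.578 by edgeR. MYC passed with the shSUZ12 and control libraries fitted alone (-0.36, adjusted p = 0.0190, edgeR), a fit that called 10.8% of all tested genes lower. Without either shEZH2 library the value was also -0.36, given by size alone because 1 shEZH2 library remains in such fits. Set directly against each other, shSUZ12 cells had 1.67-fold more MYC than shEZH2 cells, a log2 difference of 0.74 ± 0.22 (SE), with a 95% interval from 0.23 to 1.26. This difference did not pass at an adjusted p of 0.114 by edgeR. It passed with the trend on transcript length removed (0.89, adjusted p = 0.0163, edgeR), a fit that called 4.27% of all tested genes higher. The difference was 0.50 without shEZH2 replicate 1 and 1.0 without shEZH2 replicate 2, again given by size alone.

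MYCN, the paralogue of MYC that is active in neural tissue, had 0 counts in all 6 libraries and was not tested. It lies on chromosome 2 at 15940564 to 15947007. In each library a count of 0 allows a level of up to the 3-count floor given above. MYC was therefore the 1 detected MYC-type activator of the list in every group. MYCL, a MYC-type gene outside the list, had 0.313 to 0.334 CPM in shSUZ12 cells, 0.409 to 1.16 in shEZH2 cells and 0.095 to 0.315 in control.

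**Figure D1:**
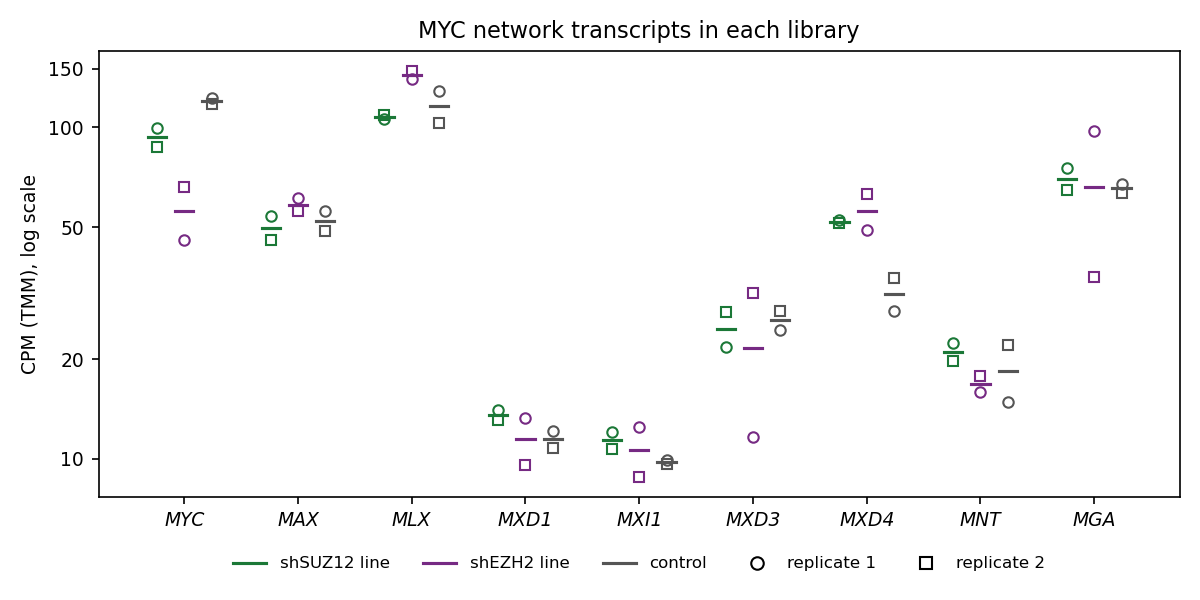
Levels of the 9 detected network members in each library, as CPM on a log axis, with circles for replicate 1, squares for replicate 2 and bars for group means (n = 2). MYC is lowest in shEZH2 cells at 45.6 and 65.9 CPM, the MXD4 libraries of both depleted lines lie above both control libraries, and MXD3 and MGA lie far apart between the shEZH2 replicates.

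MXD4 was the member with the largest positive fold change against control in both depleted lines, but did not pass the test in either. MXD4 is a repressor of the MXD group that binds SIN3, and lies on chromosome 4 at 2247432 to 2262294 on the minus strand. It had 52.5 and 51.3 CPM in shSUZ12 cells, 49.0 and 63.1 CPM in shEZH2 cells, and 27.8 and 35.0 CPM in control. All 4 libraries of the depleted lines were above both control libraries, while the shSUZ12 and shEZH2 libraries overlapped. The log2 fold change was 0.83 ± 0.22 (SE) in shEZH2 cells against control, with an adjusted p of 0.0602 by edgeR and a 95% interval from 0.33 to 1.34. Against control, shSUZ12 cells had a value of 0.72 ± 0.22 (SE), with an adjusted p of 0.190 by edgeR and an interval from 0.22 to 1.22. The 2 comparisons use the same control libraries. Between the shSUZ12 and shEZH2 lines the log2 difference was -0.11 ± 0.21 (SE), with an interval from -0.61 to 0.39.

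The test of MXD4 turned on the setting. In shEZH2 cells against control MXD4 passed by DESeq2 (adjusted p = 0.0104) and with no filter on low counts (0.0465, edgeR). It also passed with the length trend removed (log2 fold change 1.0, adjusted p = 0.0163, edgeR). These fits called 7.61%, 3.62% and 9.55% of all tested genes higher. MXD4 did not pass with the compared groups alone (0.170, edgeR), other size factors (0.0553), a replicate block (0.0512) or no robust shrinkage (0.0556). With 1 library left out its log2 fold change ranged from 0.67 to 1.01, given by size alone because 1 group then has 1 library. For shSUZ12 cells MXD4 passed when they and the control were fitted alone (adjusted p = 0.000241, edgeR), a fit that called 9.81% of all tested genes higher. It did not pass by DESeq2 (0.0894) or with the length trend removed (0.0928, edgeR). With 1 library left out its log2 fold change in shSUZ12 cells ranged from 0.59 to 0.90, also given by size alone.

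The other 3 MXD-type repressors did not pass in any of the 3 comparisons with all 6 libraries. MXD1, induced in differentiating cells, had 14.1 and 13.1 CPM in shSUZ12 cells, 13.3 and 9.61 CPM in shEZH2 cells, and 12.2 and 10.8 CPM in control. MXI1, which also binds SIN3, had 12.0 and 10.7 CPM in shSUZ12 cells, 12.5 and 8.84 CPM in shEZH2 cells, and 9.95 and 9.65 CPM in control. For both genes the shSUZ12 libraries were above the control libraries, and the shEZH2 libraries lay on both sides of control. The log2 fold change of MXD1 in shSUZ12 cells was 0.24 ± 0.23 (SE, adjusted p = 0.790, edgeR), and that of MXI1 was 0.22 ± 0.24 (SE, adjusted p = 0.836, edgeR). In shEZH2 cells against control the values were -0.00 ± 0.24 for MXD1 and 0.12 ± 0.24 for MXI1 (SE, adjusted p = 0.998 and 0.775, edgeR). MXD1 lies on chromosome 2 at 69897688 to 69942945, MXI1 on chromosome 10 at 110207605 to 110287365 and MXD3 on chromosome 5 at 177301461 to 177312757. MXD3, an MXD protein found in proliferating cells, had 21.8 and 27.7 CPM in shSUZ12 cells, 11.7 and 31.6 CPM in shEZH2 cells, and 24.5 and 27.9 CPM in control. Its shEZH2 libraries were both the lowest and the highest of the 6. The log2 fold change of MXD3 in shEZH2 cells was -0.28 with an interval from -1.24 to 0.69, which leaves both a fall and a rise possible at this spread. Without shEZH2 replicate 2 the value of MXD3 was -1.13 there, and 1.05 in shSUZ12 cells against shEZH2 cells. Between the depleted lines MXD1 differed by 0.50 without shEZH2 replicate 1. Such fits rest on 1 shEZH2 library. MXD3 shares 1158 exon bases with PRELID1 on the other strand and 926 with RAB24 on its own strand, and the strand setting of the counting is not given, so its reads are less certain.

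MNT and MGA also did not pass in any comparison with all 6 libraries. MNT, a widely expressed antagonist of MYC on chromosome 17 at 2384060 to 2401118, had 22.3 and 19.7 CPM in shSUZ12 cells, 15.9 and 17.7 CPM in shEZH2 cells, and 14.9 and 22.0 CPM in control. The control libraries spanned the shEZH2 libraries, and the shSUZ12 libraries were above the shEZH2 libraries, by 0.32 ± 0.24 (log2, SE, adjusted p = 0.435, edgeR). MGA, a large protein with a T-box and an E-box reading domain, encoded on chromosome 15 at 41621224 to 41773081, had 75.4 and 64.5 CPM in shSUZ12 cells, 97.2 and 35.3 CPM in shEZH2 cells, and 67.5 and 63.3 CPM in control. Its shEZH2 replicates were the highest and the lowest of the 6 libraries, and the log2 fold change of 0.02 against control had an interval from -0.93 to 0.97. Without shEZH2 replicate 1 the value of MGA in that line was -0.89, and without replicate 2 it was 0.60. The shSUZ12 cells differed from shEZH2 cells by 0.99 without replicate 1 and by -0.50 without replicate 2. Such fits rest on 1 shEZH2 library.

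Neither of the shared partners, MAX and MLX, passed the test in any comparison with all 6 libraries. MAX, with which MYC, MXD proteins, MNT and MGA all pair, lies on chromosome 14 at 65006174 to 65102695. It had 54.0 and 45.6 CPM in shSUZ12 cells, 61.0 and 55.8 CPM in shEZH2 cells, and 56.0 and 48.6 CPM in control. Its log2 fold change was -0.07 ± 0.19 (SE, adjusted p = 0.950, edgeR) in shSUZ12 cells and 0.16 ± 0.19 (SE, adjusted p = 0.619, edgeR) in shEZH2 cells. MLX, on chromosome 17 at 42567068 to 42573239, had 106 and 109 CPM in shSUZ12 cells, 139 and 148 CPM in shEZH2 cells, and 129 and 103 CPM in control. Both shEZH2 libraries were above all the others. The log2 fold change of MLX was 0.31 ± 0.18 (SE, adjusted p = 0.313, edgeR) in shEZH2 cells against control and -0.42 ± 0.18 (SE, adjusted p = 0.212, edgeR) in shSUZ12 cells against shEZH2 cells, and the interval of the second, from -0.84 to 0.00, reached 0. In shEZH2 cells against control MLX was 0.35 without shEZH2 replicate 1, and its value ranged from 0.15 to 0.51 with 1 library left out. Between the depleted lines it was -0.46 without shEZH2 replicate 1 and -0.41 without replicate 2, in fits that rest on 1 shEZH2 library. MLX shares 770 exon bases with PSMC3IP on the other strand, MNT 1065 with an antisense gene, MGA 510 with a non-coding RNA on the other strand, MXI1 205 and MAX 184 with antisense genes, MXD1 237 with SNRNP27 on its own strand and MXD4 80 with MIR4800, so their reads carry the same uncertainty.

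Across the 9 tested members, 1 was called in shEZH2 cells against control by edgeR, beside 6.74% of all tested genes. An unadjusted p under 0.05 was found for 2, as for 26.8% of all. DESeq2 called 2, MYC lower and MXD4 higher, beside 6.31% of all lower and 7.61% higher. With the shEZH2 and control libraries fitted alone edgeR called 0 members, beside 0.767% of all lower and 0.796% higher. No member was called in shSUZ12 cells against control, where 1.61% of all tested genes were called (0.719% higher and 0.888% lower). There 1 member had an unadjusted p under 0.05 by edgeR, beside 13.1% of all. DESeq2 called 0, beside 1.73% of all higher and 1.99% lower. With the shSUZ12 and control libraries fitted alone edgeR called 2 members, MYC lower and MXD4 higher, beside 9.81% of all higher and 10.8% lower. The main fit shares 1 spread per gene over the 3 groups, although the shEZH2 libraries were further apart than the others. No member was called in shSUZ12 cells against shEZH2 cells, where 1.52% of all tested genes were called (0.726% higher and 0.796% lower). There 1 member had an unadjusted p under 0.05 by edgeR, beside 23.9% of all. DESeq2 called 0, beside 3.99% of all higher and 5.20% lower. Libraries did not overlap for 3 of 9 members in shEZH2 cells against control, as for 54.4% of all tested genes. They did not overlap for 4 of 9 in shSUZ12 cells against control, as for 61.2% of all, and for 4 of 9 between the 2 depleted lines, as for 54.6% of all. In none of the 3 comparisons was the share of members that did not overlap above that of all genes. The median log2 fold change of the 9 members was 0.02 in shEZH2 cells against control, beside -0.01 over all tested genes, and 0.10 in shSUZ12 cells against control, beside 0.00 over all.

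**Figure D2:**
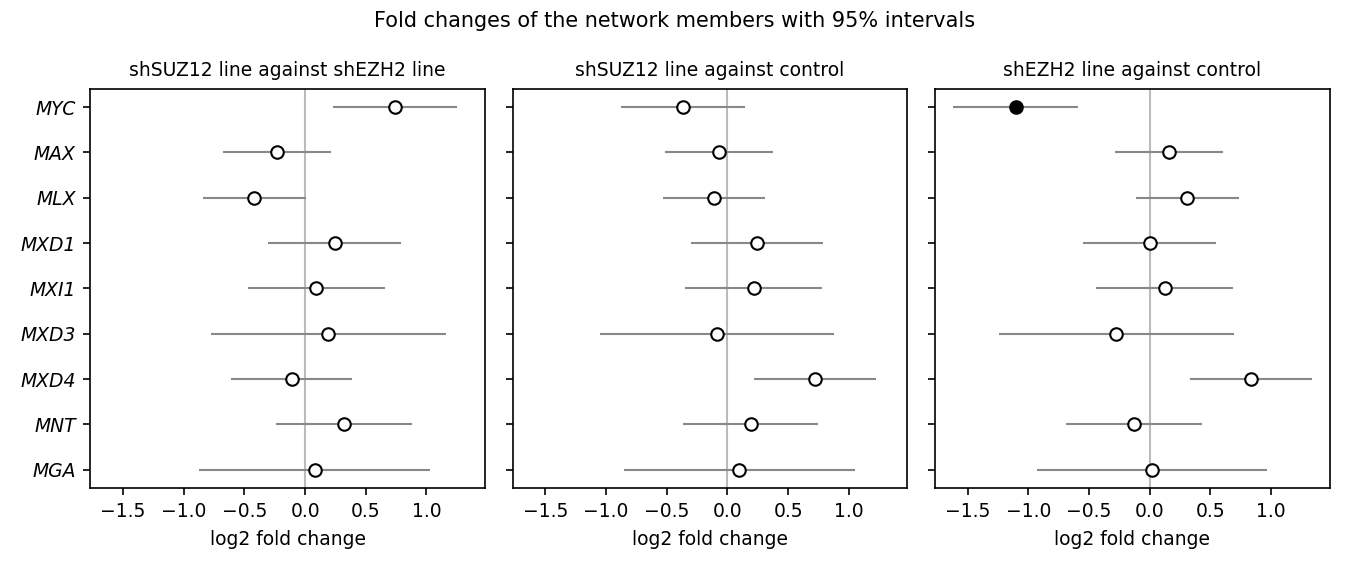
Log2 fold changes of the 9 tested members in the 3 comparisons, with 95% intervals from the edgeR quasi-likelihood fit. The filled point is the 1 called member, MYC at -1.11 in shEZH2 cells against control. The intervals of MXD4 lie above 0 in both comparisons with control, and those of MXD3 and MGA span almost 2 log2 units.

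The spread between the shEZH2 replicates differed widely between members. MGA, with an annotated transcript of 14439 bases, was 2.76-fold lower in shEZH2 replicate 2 than in replicate 1. MXD3, with the shortest transcript of the members at 2269 bases, was 2.71-fold higher in replicate 2. The remaining 7 detected members differed between those libraries by 1.06-fold for MLX to 1.45-fold for MYC. The largest difference between replicates was 1.27-fold in shSUZ12 cells, for MXD3, and in control it was 1.48-fold, for MNT. MYC, with 2366 bases, was among the short transcripts that stood higher in shEZH2 replicate 2, and it was below every other library in both replicates of that line.

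**Figure D3:**
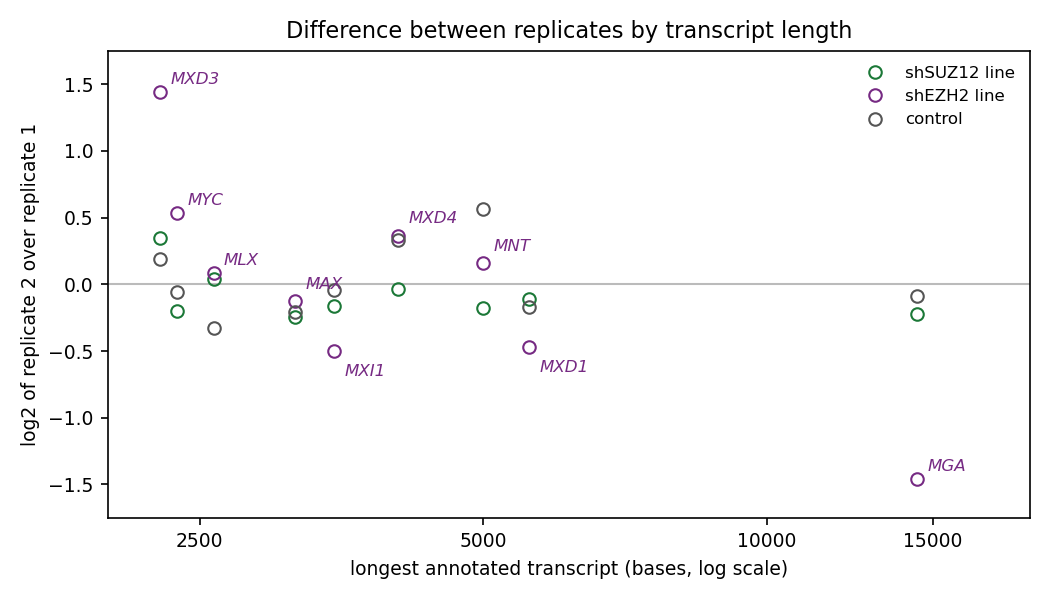
Difference between the replicates of each group (log2 of CPM in replicate 2 over replicate 1) against the length of the longest annotated transcript, on a log axis, for the 9 detected members. Members of shEZH2 cells are labelled, from MXD3 at 1.44 to MGA at -1.46, while the members in shSUZ12 cells and the control lie closer to 0.

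Levels of different members were compared per kilobase of their longest annotated transcript, so these orders depend on which isoform the cells use. In the control MYC came first at 51.7 and 49.8 CPM per kb, next to MLX at 49.8 and 39.7 CPM per kb, and the ranges met. MLX at 40.9 and 42.1 CPM per kb and MYC at 42.1 and 36.7 CPM per kb overlapped in shSUZ12 cells. In shEZH2 cells MLX was far above MYC, which stood at 19.3 and 27.9 CPM per kb, next to MAX at 19.3 and 17.7 CPM per kb, and MYC and MAX overlapped there. MAX followed as the third in every group, at a mean of 15.8 CPM per kb in shSUZ12 cells, 18.5 in shEZH2 cells and 16.6 in control. MXD4 and then MXD3 came next by mean in both depleted lines, and the order of this pair was the other way round in control. Levels were 12.9 and 12.6 CPM per kb for MXD4 and 9.59 and 12.2 for MXD3 in shSUZ12 cells, which do not overlap, whereas MXD4 at 12.1 and 15.5 and MXD3 at 5.14 and 13.9 CPM per kb overlapped in shEZH2 cells. In control MXD4 had 6.86 and 8.63 CPM per kb and MXD3 had 10.8 and 12.3. MGA, MNT, MXI1 and MXD1 were the lowest 4 detected members in that order in every group, between 4.84 and 2.05 CPM per kb by mean. MGA and MNT overlapped in shEZH2 cells and in control, MNT and MXI1 overlapped in shEZH2 cells, and MXI1 and MXD1 did not overlap in any group.

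Ratios within a library do not depend on how libraries are scaled, and they put the balance between activator and antagonists in 1 value. A trend with transcript length does not cancel in them. In shEZH2 replicate 2 the fitted trend (log2) was 0.21 for MYC and 0.23 for MXD3. It was -0.06 for MXI1, -0.19 for MXD4, -0.33 for MNT and -0.40 for MXD1. MYC over MAX, per kilobase, was 2.46 and 2.54 in shSUZ12 cells, 0.996 and 1.58 in shEZH2 cells, and 2.91 and 3.23 in control. MYC over MXD4 was 3.25 and 2.90 in shSUZ12 cells, 1.59 and 1.79 in shEZH2 cells, and 7.53 and 5.76 in control. In both ratios the 3 groups did not overlap, and the order was the same as that of MYC itself. MYC over the sum of the 5 SIN3-type antagonists MXD1, MXD3, MXD4, MXI1 and MNT was 1.28 and 1.07 in shSUZ12 cells, 0.730 and 0.747 in shEZH2 cells, and 2.01 and 1.66 in control. The antagonists thus outweighed MYC per kilobase in both shEZH2 libraries, and in none of the other 4 libraries. That sum includes MXD3, whose reads are less certain. The summed antagonists themselves stood at 33.0 and 34.2 CPM per kb in shSUZ12 cells, 26.4 and 37.3 in shEZH2 cells, and 25.7 and 30.1 in control. The shEZH2 libraries overlapped the control in that sum, and the shSUZ12 libraries were above both control libraries. MXD4 over MXD3 was 1.35 and 1.04 in shSUZ12 cells, 2.35 and 1.12 in shEZH2 cells, and 0.637 and 0.701 in control, so that the control was the group in which MXD3 exceeded MXD4. These ratios describe RNA and carry no test.

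**Figure D4:**
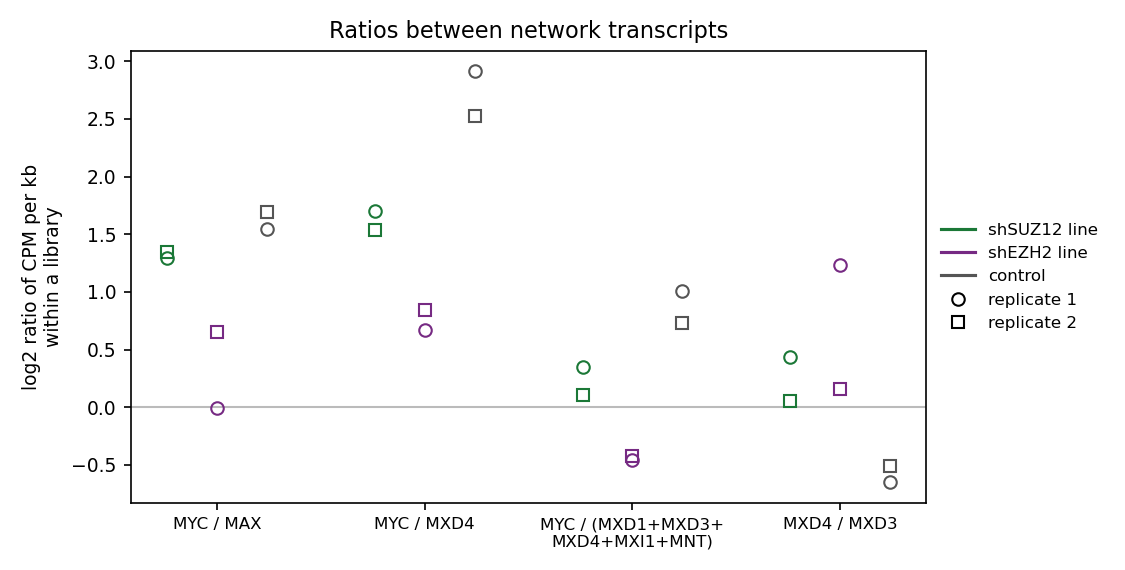
Ratios between network transcripts within each library, as log2 of CPM per kb over CPM per kb, with circles for replicate 1 and squares for replicate 2. A value of 0 means equal levels per kilobase. MYC over the summed antagonists is below 0 in both shEZH2 libraries (linear 0.730 and 0.747) and above 0 in the other 4.

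The E-box read by the network also occurs in front of some of its own genes. RefSeq (GRCh38.p14) windows from 250 bases before to 50 bases after the start of a gene were at hand for 9 members, all but MYC, with 14 windows in all. The letters CACGTG, which read the same on both strands, were in 3 of them, those of MXD4, MNT and MLX. They occur in 7.26% of 35116 such windows of all genes. The 250 bases before the start are printed for these 3 members because MXD4 was the antagonist with the largest fold changes here, and the others share the motif with it. Capitals mark CACGTG, 238 bases before the start in MXD4, 193 in MNT and 50 in MLX.
MXD4, chr4:2262110-2262359, minus strand: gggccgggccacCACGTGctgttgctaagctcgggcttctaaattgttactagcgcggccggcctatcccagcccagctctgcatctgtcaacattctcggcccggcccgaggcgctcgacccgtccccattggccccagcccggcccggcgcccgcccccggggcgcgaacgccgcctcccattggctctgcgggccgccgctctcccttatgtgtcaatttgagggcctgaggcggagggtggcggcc
MNT, chr17:2401061-2401310, minus strand: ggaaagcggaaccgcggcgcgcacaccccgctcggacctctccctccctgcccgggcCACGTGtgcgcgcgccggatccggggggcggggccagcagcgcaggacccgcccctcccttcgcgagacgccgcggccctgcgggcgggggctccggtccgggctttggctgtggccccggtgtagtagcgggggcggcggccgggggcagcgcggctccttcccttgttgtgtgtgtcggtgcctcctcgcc
MLX, chr17:42566850-42567099, plus strand: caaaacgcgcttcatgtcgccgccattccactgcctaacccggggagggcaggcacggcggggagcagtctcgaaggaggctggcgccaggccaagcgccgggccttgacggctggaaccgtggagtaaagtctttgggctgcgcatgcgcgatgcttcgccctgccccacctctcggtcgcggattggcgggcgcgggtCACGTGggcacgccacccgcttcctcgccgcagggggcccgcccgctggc
Of these 3 genes MXD4 had intervals above 0 in both depleted lines against control, and MNT and MLX did not. A match of letters describes the sequence, and no binding was measured here.

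The other transcription factors that read E-boxes with a similar domain, such as MLXIP, USF and SREBP proteins, had 10 of 12 listed genes tested. In shEZH2 cells against control 2 fell and none rose, beside 3.20% and 3.54% of all tested genes, with a median log2 fold change of -0.16. MITF, the master regulator of melanocytes, had 17.8 and 11.1 CPM in shEZH2 cells against 36.3 and 34.9 CPM in control, a log2 fold change of -1.30 ± 0.25 (SE, adjusted p = 0.0295, edgeR). SREBF2, which drives cholesterol synthesis, had 95.0 and 89.1 CPM in shEZH2 cells against 146 and 201 CPM in control (-0.92 ± 0.21, adjusted p = 0.0442, edgeR). With 223 and 189 CPM, shSUZ12 cells had more SREBF2 than shEZH2 cells (1.16 ± 0.21, adjusted p = 0.0488, edgeR). Between shSUZ12 cells and control 0 of the 10 were called by edgeR and 0 by DESeq2. An unadjusted p under 0.05 was found for 1, beside 13.1% of all tested genes.

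Of 18 tested MYC coactivators and 17 tested SIN3 and NCOR corepressors, 1 each was called in shEZH2 cells against control, beside 6.74% of all tested genes, so these counts are no more than the background. RUVBL2, an ATPase of the TIP60 and INO80 complexes, rose in shEZH2 cells, with 412 and 558 CPM against 264 and 225 CPM in control (0.99 ± 0.20, adjusted p = 0.0339, edgeR), and the median of the coactivators was 0.09. BRMS1L, a subunit of SIN3 complexes, fell, with 13.3 and 8.89 CPM in shEZH2 cells against 26.8 and 26.1 CPM in control (-1.25 ± 0.25, adjusted p = 0.0316, edgeR). The median of the corepressors was -0.12. Neither list had a call by edgeR or DESeq2 in shSUZ12 cells against control. There 0 coactivators and 2 corepressors had an unadjusted p under 0.05, beside 13.1% of all tested genes. None of the 13 partners of MGA in PRC1.6 passed by edgeR in shEZH2 cells against control, shSUZ12 cells against control or shSUZ12 cells against shEZH2 cells. In this order 2, 0 and 1 had an unadjusted p under 0.05, beside 26.8%, 13.1% and 23.9% of all tested genes. Of all tested genes DESeq2 called 7.61% higher and 6.31% lower, 1.73% and 1.99%, and 3.99% and 5.20%. Among the partners it called 1 higher and 1 lower, 0, and 1 higher in the same comparisons. Those of highest mean CPM were TFDP1, a partner of E2F proteins, with 349 and 348 CPM in shSUZ12 cells, 405 and 268 in shEZH2 cells and 418 and 373 in control, and CBX3, a reader of methylated histones, with 325 and 310, 306 and 341, and 315 and 321 CPM in the same order.

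Genes that set the level of MYC RNA or protein were mostly not called. IGF2BP2, an RNA-binding protein that stabilises MYC messenger RNA among others, was the 1 of 22 tested regulators of MYC transcription and RNA called lower in shEZH2 cells against control, a count near the 3.20% of all tested genes called lower. It had 79.2 and 79.0 CPM in shSUZ12 cells, 61.1 and 52.9 CPM in shEZH2 cells and 118 and 124 CPM in control, and its log2 fold change in shEZH2 cells was -1.09 ± 0.18 (SE, adjusted p = 0.0174, edgeR). Its groups had the same order as those of MYC, shEZH2 cells lowest and the control highest. Whether the levels of IGF2BP2 and MYC are linked was not tested. None of the 22 tested genes of MYC protein turnover passed by edgeR in shEZH2 cells against control, shSUZ12 cells against control or shSUZ12 cells against shEZH2 cells. In this order 2, 1 and 1 had an unadjusted p under 0.05, beside 26.8%, 13.1% and 23.9% of all tested genes. Of all tested genes DESeq2 called 7.61% higher and 6.31% lower, 1.73% and 1.99%, and 3.99% and 5.20%. Of the turnover genes it called 2, 1 and 0 in either direction. Those of highest mean CPM were SET, an inhibitor of the phosphatase PP2A, with 565 and 499 CPM in shSUZ12 cells, 636 and 551 in shEZH2 cells and 692 and 643 in control, and USP22, a deubiquitinase of the SAGA complex, with 451 and 435, 409 and 290, and 478 and 443 CPM in that order.

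None of the genes around MYC on 8q24 passed the test. Of 11 tested neighbours none was called by edgeR in any comparison. In the order of comparisons above 4, 2 and 4 had an unadjusted p under 0.05, beside 26.8%, 13.1% and 23.9% of all tested genes. DESeq2 called 7.61% of all higher and 6.31% lower, then 1.73% and 1.99%, then 3.99% and 5.20%. Of the neighbours it called 1 higher and 1 lower, 0, and 1 higher and 1 lower. Their median log2 fold change was 0.09 in shEZH2 cells and 0.12 in shSUZ12 cells against control. PVT1, the long non-coding RNA next to MYC, had 8.49 and 11.8 CPM in shSUZ12 cells, 7.14 and 12.7 CPM in shEZH2 cells, and 9.46 and 9.12 CPM in control. Both depleted lines had a PVT1 library on either side of the control libraries. The neighbours of highest mean CPM were FAM49B, with 114 and 110 CPM in shSUZ12 cells, 133 and 123 in shEZH2 cells and 118 and 112 in control, and ASAP1, a GTPase-activating protein for ARF, with 70.2 and 59.3, 79.2 and 37.8, and 117 and 121 CPM in that order. ASAP1 was thus below both control libraries in all 4 libraries of the depleted lines.

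Genes that MYC is known to activate rose in part in shEZH2 cells, where MYC itself fell. Of 61 tested genes, 8 were called higher and none lower in shEZH2 cells against control, beside 3.54% and 3.20% of all tested genes, and 50 had a fold change above 0, beside 48.9% of all tested genes. The median was 0.42, beside -0.01 over all. The 8 were RRP12, EXOSC5, NOP16, PPAN and TCOF1, which serve the making or processing of ribosomal RNA and ribosomes, FARSA, a subunit of a transfer RNA synthetase, SRM, the spermidine synthase, and TFB2M, a mitochondrial transcription factor. RRP12 had 279 and 258 CPM in shEZH2 cells against 105 and 86.6 CPM in control (1.49 ± 0.19, adjusted p = 0.00885, edgeR). EXOSC5 had 85.5 and 113 CPM in shEZH2 cells against 45.4 and 36.4 CPM in control (1.28 ± 0.22, adjusted p = 0.0221, edgeR). Both genes were higher in each shEZH2 library than in every other library. In shSUZ12 cells against control no gene of the list was called by edgeR or DESeq2. There 3 had an unadjusted p under 0.05, beside 13.1% of all tested genes, and 15 of 61 had a fold change above 0, beside 50.5%. The median was -0.13, beside 0.00 over all. With these groups fitted alone, or without either shEZH2 library, 9 were called lower, beside 10.8% to 10.9% of all tested genes, and without control replicate 1 the median was 0.01.

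Set against each other, 6 of these genes were called lower in shSUZ12 cells than in shEZH2 cells and none higher, beside 0.796% and 0.726% of all tested genes, with a median of -0.57, beside 0.04 over all. The 6 were NOP16, EXOSC5, RRP12, SRM, FARSA and TFB2M, and NOP16 had 67.1 and 76.2 CPM in shSUZ12 cells against 163 and 208 CPM in shEZH2 cells (-1.37 ± 0.23, adjusted p = 0.0381, edgeR). In each library, the median difference of the list from the control mean was -0.18 and -0.06 in shSUZ12 cells, 0.36 and 0.49 in shEZH2 cells, and 0.11 and -0.11 in control. The shSUZ12 libraries overlapped the control and both shEZH2 libraries lay above all the others. The listed genes are short, with a median transcript of 2450 bases beside 3366 bases over all tested genes. With the trend on length removed from every library the median in shEZH2 cells against control was 0.34 and 17 genes were called higher, beside 9.55% of all. The count depended on the libraries fitted, as did that of all genes. Without shEZH2 replicate 1, 32 were called higher and 8 lower, beside 25.6% and 29.2% of all tested genes. Without shEZH2 replicate 2, 32 were called higher and 2 lower, beside 15.3% and 13.0% of all. It was 1 higher without shSUZ12 replicate 1 or replicate 2, beside 0.740% and 0.733% of all, and 0 without control replicate 1 or replicate 2, beside 0.0211% and 0.0141%, and medians lay between 0.33 and 0.52. DESeq2 called 20 higher, beside 7.61% of all, and the fit of the compared groups alone called 1, beside 0.796%. Between the depleted lines 39 were lower and 6 higher without shEZH2 replicate 1, beside 24.7% and 28.4% of all, and 44 were lower and 1 higher without replicate 2, beside 13.9% and 10.2% of all. None was called without any 1 of the other 4 libraries, where at most 0.00705% of all genes were called lower, or with the compared groups alone (0.00717% of all). The count lower was 21 by DESeq2 (5.20% of all), 18 with no filter on low counts (1.83%) and 20 with the length trend removed (5.24%).

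Genes that MYC is known to repress went both ways. Of 15 tested, 1 was called higher and 1 lower in shEZH2 cells against control, beside 3.54% and 3.20% of all tested genes. In shSUZ12 cells against control 1 was called higher and 1 lower, beside 0.719% and 0.888% of all. CEBPA, a transcription factor of fat and myeloid cell differentiation, had 0.179 and 0.0954 CPM in shSUZ12 cells, 9.60 and 12.8 CPM in shEZH2 cells, and 0.901 and 0.903 CPM in control. It was called higher in shEZH2 cells (3.63 ± 0.33, adjusted p = 0.00373, edgeR) and lower in shSUZ12 cells (-2.65 ± 0.49, adjusted p = 0.0477, edgeR), where its level rests on 4 and 2 reads. CDKN1A, the cell cycle inhibitor p21, had 78.3 and 67.5 CPM in shSUZ12 cells against 27.1 and 34.7 CPM in control (1.24 ± 0.22, adjusted p = 0.0444, edgeR). THBS1, a secreted inhibitor of vessel growth, had 430 and 188 CPM in shEZH2 cells against 1200.4 and 812 CPM in control (-1.70 ± 0.39, adjusted p = 0.0445, edgeR). The median of the list was 0.16 in shEZH2 cells and 0.21 in shSUZ12 cells, beside -0.01 and 0.00 over all tested genes. Of 4 tested targets of MLX and MLXIP, 1 was called lower in shEZH2 cells against control, beside 3.20% of all tested genes. It was TXNIP, which limits glucose uptake, with 39.5 and 36.2 CPM against 140 and 90.0 CPM in control (-1.61 ± 0.24, adjusted p = 0.0148, edgeR). TXNIP had 65.9 and 63.9 CPM in shSUZ12 cells, below both control libraries and above both shEZH2 libraries. Of the 26 calls of listed genes over the 3 comparisons, 5 held with the compared groups fitted alone. With 1 library left out, how many held depended on the library, as did the number of all genes called.

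**Figure D5:**
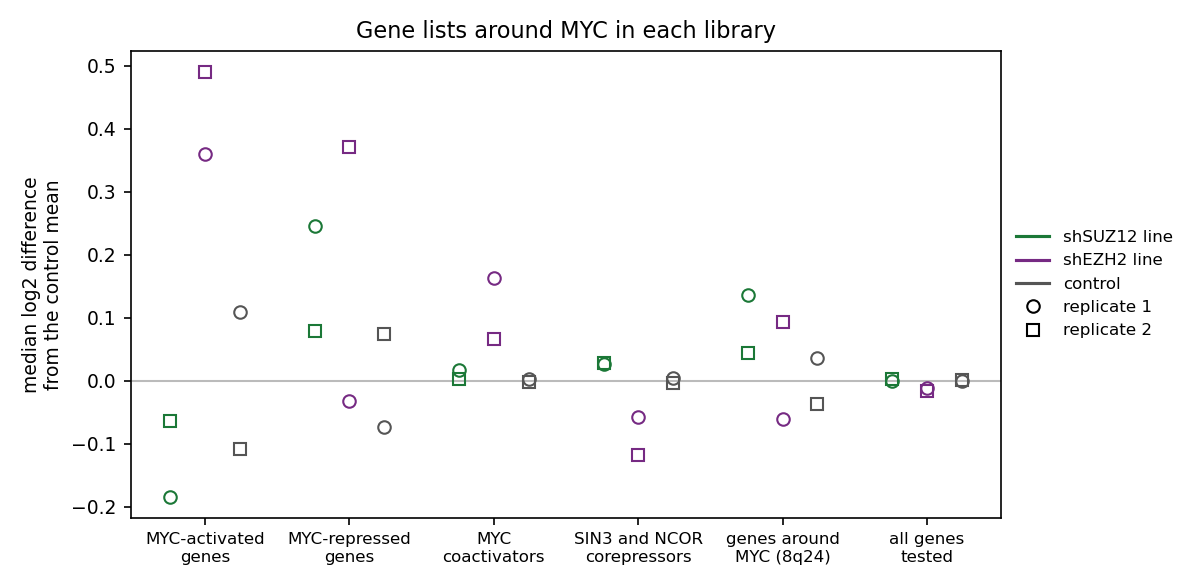
Median log2 difference from the control mean of the genes of 5 lists and of all tested genes, in each library, with circles for replicate 1 and squares for replicate 2. MYC-activated genes stand at 0.36 and 0.49 in the shEZH2 libraries, against -0.18 and -0.06 in shSUZ12 cells and 0.11 and -0.11 in control.

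The tested genes whose pattern over the 6 libraries was most like that of MYC were DISP2, CREB3L1 and FCGRT, at root mean square distances of 0.07, 0.11 and 0.12 on the log2 scale. DISP2, of the dispatched family, had 10.7 and 10.2 CPM in shSUZ12 cells, 4.92 and 6.44 CPM in shEZH2 cells, and 13.5 and 12.6 CPM in control. CREB3L1, a transcription factor held in the endoplasmic reticulum, had 53.4 and 49.9 CPM in shSUZ12 cells, 26.9 and 37.8 CPM in shEZH2 cells, and 63.0 and 77.2 CPM in control. FCGRT, the neonatal Fc receptor, had 6.57 and 6.82 CPM in shSUZ12 cells, 2.80 and 5.37 CPM in shEZH2 cells, and 9.59 and 8.98 CPM in control. These genes were chosen for their likeness to MYC over these libraries, so the order of their groups is a description.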

How the data were processed

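RNA of 6 libraries was made into libraries with a stranded kit for messenger RNA, per the labels' protocols. The values are unnormalised counts of reads for each symbol as deposited, separate for every library. The submitters' processing notes name the build GRCh38 with GenomeStudio 2010.1, STAR and R 3.2.5. Which annotation was counted, and with which strand setting, is not given in the sources used, so reads of overlapping genes may not have been told apart. The 4 entries that name no gene, such as multimapping reads, held 16.5 to 21.0% of counts per library and were left out.

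Groups came from the sample titles. Of 29744 genes, 8814 had no count and 14192 passed edgeR's filterByExpr and were tested. A single robust edgeR 4.0.16 quasi-likelihood fit (R 4.3.3, limma 3.58.1) of all 3 groups, TMM-scaled, with 3 residual degrees of freedom gave each contrast, with calls at an adjusted p (Benjamini-Hochberg) under 0.05. Standard errors were derived from the F statistics. The procedure was tested on simulated data in which all groups shared 1 spread per gene and no length trend was set. The shEZH2 libraries here were unlike that, so the simulation does not speak to their calls. An exact permutation test of 1 gene with 2 libraries per group cannot go below p = 0.333. Transcript lengths and positions are from GENCODE 29 (GRCh38), which matched 23578 symbols and gave lengths for 94.3% of tested genes. Floors cover counting error only. 1 listed blood marker is not reported here.

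The members, the gene lists and the tests were chosen with earlier results of these data known. Beside the members and the targeted genes, the text names up to 2 called rises and up to 2 called falls for a list in each comparison, the 2 genes of highest mean CPM of a list with no call, and the 3 genes nearest in pattern to a called member (mean of at least 5 CPM). FARSA, PPAN, SRM, TCOF1, TFB2M, PVT1 and MYCL were named after their values were seen. Alternatives were other size factors, no filter, DESeq2 1.42.0, only the compared groups, a replicate block, no robust shrinkage, leaving out each library and, chosen after seeing the data, removal of the length trend.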

Additional observations from a re-analysis of the deposited data

Results flagged for a closer look

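Each of the following differed between the shSUZ12 line and the shEZH2 line by the direct test of that difference (edgeR, Benjamini-Hochberg adjusted p under 0.05). Values are log2 fold changes of the shSUZ12 line over the shEZH2 line. EZH2, the target of 1 of the hairpins, differed by 1.86, with 201 and 221 CPM in the shSUZ12 line and 53.1 and 63.5 CPM in the shEZH2 line.

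CEBPA, a gene known to be repressed by MYC, differed by -6.28, and its calls against control went in opposite directions. SREBF2, an E-box factor of cholesterol synthesis, differed by 1.16.

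Among MYC-activated genes EXOSC5 differed by -1.32, FARSA by -1.02, NOP16 by -1.37, RRP12 by -1.18, SRM by -1.18 and TFB2M by -1.02. FARSA had 156 and 182 CPM in the shSUZ12 line and 336 and 348 CPM in the shEZH2 line, beside 162 and 142 CPM in control. SRM had 151 and 165 CPM in the shSUZ12 line and 306 and 411 CPM in the shEZH2 line, beside 200 and 198 CPM in control. TFB2M had 31.1 and 31.6 CPM in the shSUZ12 line and 65.4 and 62.0 CPM in the shEZH2 line, beside 29.8 and 26.1 CPM in control. No network member was among these genes. MYC differed by 0.74 between the 2 lines and did not pass, and its libraries did not overlap.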

How the results depend on the processing

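MYC was lower than control in both depleted lines, and higher in the shSUZ12 line than in the shEZH2 line, under every alternative run. Of its 39 alternative values over the 3 comparisons 28 stayed on the same side of the threshold, 6 passed newly and 5 no longer passed. Of the values of the other members, 269 kept direction and side, 16 passed newly in the same direction and 27 changed sign, 2 of which (MGA) passed with the new sign.

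Genes called in the shEZH2 line against control numbered 957, and 1471 with no low-count filter, 1976 by DESeq2, 216 with the 2 compared groups only and 2312 with the length trend removed. Members called there numbered 1, and 2 with no filter, 2 by DESeq2, 0 with the 2 groups only and 2 with the length trend removed. MYC was -1.10 with the 2 groups only (adjusted p = 0.0973). MXD1 changed sign to 0.0149 with other size factors, 0.0150 by DESeq2, 0.00168 with the 2 groups only and 0.24 without the length trend, and MNT to 0.12 without the length trend. Genes called in the shSUZ12 line against control numbered 228, and 399 with no filter, 527 by DESeq2, 2876 with the 2 groups only and 660 without the length trend. Members called there numbered 0, and 2 with the 2 groups only (MYC at -0.36 and MXD4). Genes called between the depleted lines numbered 216, and 718 with no filter, 1304 by DESeq2, 1 with the 2 groups only and 1273 without the length trend. Members called numbered 0, and 1, MYC at 0.89, without the length trend, where MGA was -0.29.

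The replicate numbers are not stated to pair libraries, and same-numbered libraries deviated together with r of 0.08 to 0.19. With a replicate block 1233, 328 and 368 genes were called in the shEZH2 line against control, the shSUZ12 line against control and the shSUZ12 line against the shEZH2 line. MYC was -1.12 in the shEZH2 line (adjusted p = 0.0286), and MGA changed sign there to -0.11.

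Leaving out each library in turn called 5 to 7775 genes and 0 to 4 members in the shEZH2 line against control, 9 to 2929 genes and 0 to 2 members in the shSUZ12 line against control, and 0 to 7537 genes and 0 to 4 members between the depleted lines. MYC ranged from -1.37 to -0.86, from -0.47 to -0.27 and from 0.50 to 1.0 in these comparisons. In the shEZH2 line against control MGA ranged from -0.89 to 0.60, MXD3 from -1.13 to 0.27, MNT from -0.36 to 0.18, MXD1 from -0.26 to 0.25 and MXI1 from -0.15 to 0.38. In the shSUZ12 line against control MAX ranged from -0.20 to 0.0584, MLX from -0.26 to 0.0861, MNT from -0.0439 to 0.50, MGA from -0.0194 to 0.20 and MXD3 from -0.27 to 0.0786. Between the depleted lines MGA ranged from -0.50 to 0.99, MXD3 from -0.36 to 1.05, MXD1 from -0.00026 to 0.50, MXI1 from -0.16 to 0.36, MXD4 from -0.28 to 0.0533 and SUZ12 from -0.86 to 0.46. With 2 libraries a group, leaving out 1 also removes a residual degree of freedom. Beyond this, the cause of these shifts was not tested.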
